A study of Mus musculus with 16 samples.

Results

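The insulin-like growth factor (IGF) system was examined in mouse quadriceps through 9 genes: the ligands Igf1 and Igf2, the receptors Igf1r and Igf2r, and the binding proteins Igfbp3, Igfbp4, Igfbp5, Igfbp6 and Igfbp7. They were taken by symbol from the deposited table, which held 23970 symbols, and all 9 were found. All 9 were also among the 11256 genes that averaged 0.5 FPKM or more (fragments counted per unit of transcript length and of library size) in the 16 libraries, which were the genes tested. The libraries came from male C57BL/6NTac mice aged 16 weeks, 4 libraries a group, and each library was from a different muscle sample. CON mice had eaten a diet with 10% of its energy as fat and HFD mice a diet with 60%, both for 10 weeks. CON-pre and HFD-pre muscle was taken at rest, and CON-post and HFD-post muscle 3 h after 1 treadmill run to exhaustion. All groups were acclimatized to the treadmill and fasted for 3 h, and the exercised mice had water but no food after the run. The methods give the resting mice an equal fast and do not spell out whether it takes in those hours without food. The groups therefore hold different mice, so each comparison with exercise is between animals.

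IGF-1 and IGF-2 are secreted peptides that signal through the IGF-1 receptor, a tyrosine kinase that acts through insulin receptor substrate adaptors. The IGF-2 receptor takes up IGF-2 and lysosomal enzymes and does not signal as a kinase. Binding proteins hold IGFs outside the cell, can limit or prolong their action, and are cut by proteases. In muscle, locally made IGF-1 is known for its part in growth and repair, and IGF-2 and Igfbp5 are known from myogenic differentiation.

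Summed FPKM per library were 283575 to 329282, and the depth relative to CON-pre replicate 1, read from low genes, was 0.702 to 1.13. FPKM keep no read counts, so no counting interval is given. Markers of the muscle fibre were present as labelled, with 8 of 8 found and a summed level of 39979 to 55295 FPKM. Liver markers (4 of 4 found) summed to 0.271 to 22.7 FPKM and stood above 10 FPKM in 5 libraries, CON-pre replicates 1 and 3, HFD-pre replicates 1 and 4 and HFD-post replicate 1. The results below were therefore also computed without those 5 libraries, a choice made after seeing the data.

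In these libraries Igfbp4, Igfbp5, Igfbp6 and Igfbp7 were the abundant part of the system. The ligands, the signalling receptor and the binding protein Igfbp3 were the scarce part. FPKM are scaled for length, so levels can be set side by side between genes. Over the 16 libraries the mean level was 98.3 FPKM for Igfbp5, 41.3 for Igfbp7, 24.8 for Igfbp6 and 18.2 for Igfbp4. Igf2r stood at 10.1 FPKM, Igfbp3 at 4.99, Igf2 at 3.45, Igf1 at 2.55 and Igf1r at 1.30. Igfbp5 thus ranked 326 among the 11256 genes tested, whereas Igf1r lay at percentile 17.7. In CON-pre the libraries of Igfbp6 and Igfbp4 overlapped, as did those of Igfbp3 and Igf2 and of Igf2 and Igf1, so the order within these pairs was not resolved, and each other neighbour in the order was separated. Igfbp5 was the highest of the 9 in every library of all 4 groups. Of the related genes, the liver-type Igfbp1 was listed at 0 in 16 of 16 libraries and Igfbp2 was listed at 0 to 0.316 FPKM.

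**Figure D1:**
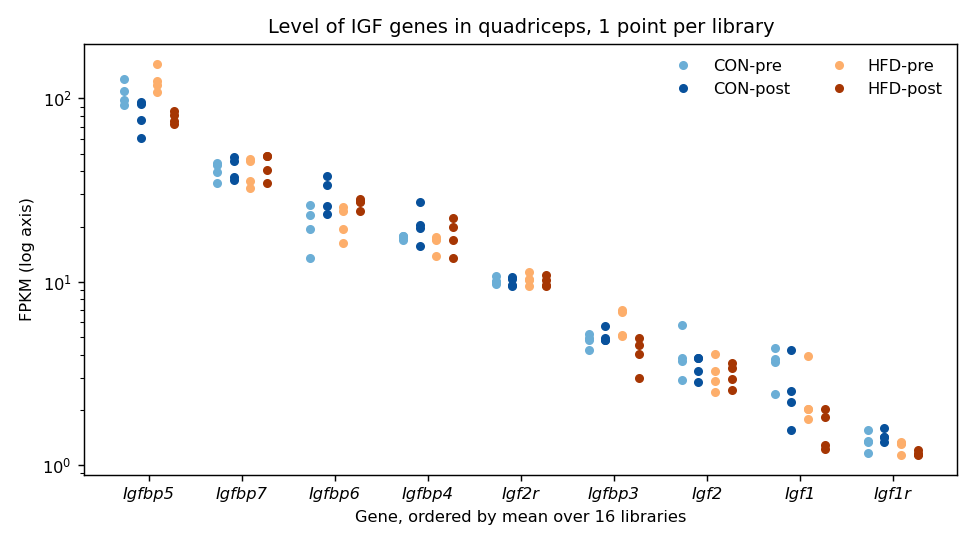
FPKM on a log axis (vertical) of the 9 IGF genes (horizontal, ordered by mean over 16 libraries), 1 point per library, coloured by group. Igfbp5 lies between 61.1 and 155 FPKM and Igf1r between 1.13 and 1.60 FPKM, and Igf2r shows the smallest ratio of highest to lowest library, 1.19.

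The members differed in how steady they were. Igf2r, the scavenging receptor, had the narrowest range, from 9.46 to 11.3 FPKM over the 16 libraries, a ratio of 1.19. Igf1 had the widest, from 1.22 to 4.37 FPKM, a ratio of 3.60. The coefficient of variation within a group reached 43.4% for Igf1 in CON-post and was at most 7.19% for Igf2r.

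The gene positions in GRCm38.p6 (RefSeq) spread the members over several chromosomes. Igfbp5 spans chromosome 1, 72858065 to 72874865, on the minus strand, 5590 bases from Igfbp2. Igfbp3 spans chromosome 11, 7206086 to 7215498, 3539 bases from Igfbp1, and Igfbp4 lies on the same chromosome at 99040005 to 99052655. Igfbp6 spans chromosome 15, 102144186 to 102149512, and Igfbp7 chromosome 5, 77349240 to 77408045. Igf1 spans chromosome 10, 87858265 to 87937047. Igf2 (142650768 to 142666816) and Igf1r (67952257 to 68233668) are both on chromosome 7, and Igf2r spans chromosome 17, 12682406 to 12769706, where the antisense gene Airn overlaps it, and the sources used here do not say whether the FPKM estimates took strand into account. Igfbp5 and Igfbp2 are neighbours, as are Igfbp3 and Igfbp1, but only 1 gene of each pair was expressed above 0.5 FPKM here.

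The 250 bases before the gene start are shown for Igfbp5, the member that fell with exercise, for Igfbp6, the binding protein with the largest difference the other way, and for Igf1, the member whose group means lay farthest apart. The sequences are from RefSeq, GRCm38.p6, written 5′ to 3′ on the strand of the gene, with capitals marking the motif matches described after them. They are chr1:72874866-72875115 (minus strand) for Igfbp5, chr15:102143936-102144185 (plus strand) for Igfbp6 and chr10:87860861-87861110 (plus strand) for Igf1, where the window precedes a start site inside the span of the gene.
Igfbp5: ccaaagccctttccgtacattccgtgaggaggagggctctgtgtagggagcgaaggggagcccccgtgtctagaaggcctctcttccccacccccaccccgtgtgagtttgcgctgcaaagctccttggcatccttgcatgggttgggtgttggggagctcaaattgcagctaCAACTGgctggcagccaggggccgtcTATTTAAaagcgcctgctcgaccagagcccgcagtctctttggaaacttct
Igfbp6: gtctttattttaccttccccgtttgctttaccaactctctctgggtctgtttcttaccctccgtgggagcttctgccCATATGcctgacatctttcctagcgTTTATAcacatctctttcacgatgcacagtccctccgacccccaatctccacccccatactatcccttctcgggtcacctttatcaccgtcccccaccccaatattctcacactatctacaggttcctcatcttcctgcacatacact
Igf1: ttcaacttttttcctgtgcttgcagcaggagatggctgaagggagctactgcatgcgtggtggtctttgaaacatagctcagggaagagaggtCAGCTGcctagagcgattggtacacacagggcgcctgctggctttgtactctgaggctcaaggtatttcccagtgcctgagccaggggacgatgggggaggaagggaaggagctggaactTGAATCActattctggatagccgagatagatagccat
Each window held 1 E-box (CANNTG, searched on both strands), a motif bound by many basic helix-loop-helix factors, which 66.2% of all 32851 promoter windows of this length also held. It began 77 bases before the start in Igfbp5, 173 in Igfbp6 and 157 in Igf1. The Igf1 window also held an AP-1 motif (TGANTCA) 37 bases before the start, found in 6.75% of all windows. A TATA box (TATAAA, in 12.4% of all windows) was matched on the reverse strand in Igfbp6, 148 bases before the start, and in neither other window. The run TATTTAA, 51 bases before the start of Igfbp5, was searched for only after that window had been read, and 4.18% of all windows hold it. STAT5 (TTCNNNGAA), CRE (TGACGTCA), FoxO (GTAAACA) and GC box (GGGCGG) letters were in none of the 3 windows. GC content was 58.8% in Igfbp5, 49.6% in Igfbp6 and 52.8% in Igf1, against a median of 52.4% over all windows.

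The binding proteins held the only member called with exercise. Igfbp5, which binds IGFs and the extracellular matrix and is the main binding protein transcript of these muscles, had a lower mean after the run in both diets, and the fall passed the test in HFD and over both diets together. Its CON-pre libraries read 127, 109, 97.5 and 91.6 FPKM, and its CON-post libraries 61.1, 76.1, 95.1 and 93.6 FPKM. CON-post replicates 3 and 4 lay above CON-pre replicate 4, so these groups overlapped. The HFD-pre libraries read 155, 125, 118 and 109 FPKM and the HFD-post libraries 72.5, 74.9, 85.2 and 81.5 FPKM. All 4 HFD-post libraries were below all 4 HFD-pre libraries.

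**Figure D2:**
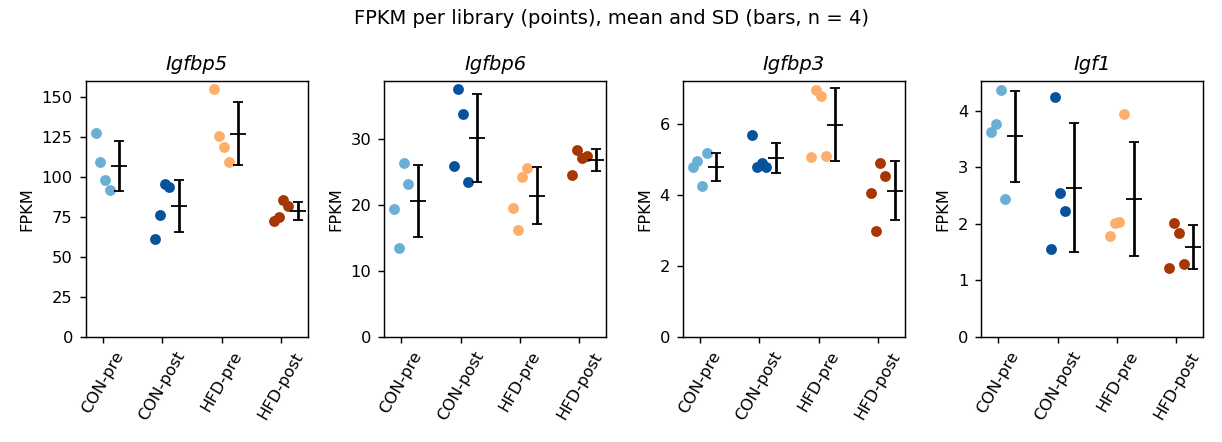
FPKM (vertical, from 0) of Igfbp5, Igfbp6, Igfbp3 and Igf1 in the 4 groups (horizontal), 1 point per library, with the mean and SD (n = 4) beside them. The HFD-post points of Igfbp5 and of Igfbp3 lie below all HFD-pre points, and 1 HFD-pre point of Igf1, at 3.95 FPKM, stands above the other 3.

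Averaged over both diets, Igfbp5 fell by 0.54 on the log2 scale after exercise (standard error 0.10, 95% interval -0.75 to -0.33, limma adjusted p = 0.00521), from a mean of 117 to 80.02 FPKM. Here and throughout, log2 fold changes are of FPKM + 0.5 and p-values are adjusted by Benjamini-Hochberg over all genes tested. In HFD the means were 127 ± 19.9 FPKM before and 78.5 ± 5.85 FPKM after (SD, n = 4), and the fold change of -0.68 on the log2 scale had a standard error of 0.14 (limma adjusted p = 0.0356). In CON the means were 106 ± 15.7 and 81.5 ± 16.1 FPKM, and the value of -0.39 (limma adjusted p = 0.253, standard error 0.14) did not pass the threshold. The difference between these responses was itself tested and was -0.29 (95% interval -0.70 to 0.13, limma adjusted p = 1.00), so the data do not show that the fall differed between diets. It was -0.19 without HFD-pre replicate 1 and -0.42 without CON-post replicate 1.

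Igfbp5 was 1 of 9 members called over both diets, where 3.86% of all genes were called and 0.915% were called lower. It was also 1 of 9 in HFD-post against HFD-pre, where 0.542% of all genes were called and 0.0533% called lower. The averaged result was called in 24 of 25 alternatives, and without the 5 libraries with liver markers it was -0.46 (adjusted p = 0.108). The HFD result alone lay near the threshold and was called in 14 of 26 alternatives, with an adjusted p of 0.0164 to 0.227. It was not called without HFD-pre replicate 1 (adjusted p = 0.139), 2 (0.114) or 3 (0.0856), without HFD-post replicate 1 (0.0958), 2 (0.137), 3 (0.0744) or 4 (0.0819), or without CON-pre replicate 3 (0.0512).

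Diet alone left Igfbp5 without a call. It was 0.25 higher on the log2 scale in HFD-pre than in CON-pre (standard error 0.14, limma adjusted p = 0.680), with overlapping libraries. This value was 0.15 without HFD-pre replicate 1 and 0.34 without CON-pre replicate 1. After exercise the difference between diets was -0.03 (95% interval -0.33 to 0.26, limma adjusted p = 0.997). The HFD value after exercise (78.5 FPKM) and the CON value (81.5 FPKM) thus lay closer together than the resting values.

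Cell type markers were read beside the fall of Igfbp5. Of 6 endothelial markers 3 were higher and 3 lower with exercise over both diets (median log2 fold change 0.01), and Pecam1 was the 1 called, at 0.36 (limma adjusted p = 0.00141). In HFD-post against HFD-pre 2 of 6 were higher (median -0.07), and Pecam1 was the 1 called, at 0.39 (limma adjusted p = 0.0347, called in 14 of 26 alternatives), while Kdr stood at -0.29 and Emcn at -0.29, neither called. Over the alternatives Kdr ranged from -0.385 to -0.076 and Emcn from -0.430 to -0.128. The summed list was 48.4 to 61.3 FPKM in CON-pre, 52.7 to 66.7 in HFD-pre, 55.7 to 71.2 in CON-post and 57.8 to 64.7 in HFD-post. Of 4 smooth muscle markers 4 were higher with exercise over both diets, and 3 had an unadjusted p under 0.05 (18.5% of all genes). Tagln was the 1 called, at 0.43 (limma adjusted p = 0.0215). In HFD-post against HFD-pre 3 of the 4 were higher and 0 were called. The sums were 25.7 to 33.4, 30.5 to 36.9, 32.6 to 44.1 and 31.3 to 45.5 FPKM in the same order of groups. None of 6 fibroblast markers was called (0 at an unadjusted p under 0.05), and their sum was 383 to 494, 360 to 479, 327 to 569 and 377 to 437 FPKM. Of these 6, 1 was higher with exercise over both diets (median log2 fold change -0.08, beside 0.01 over all genes). In HFD-post against HFD-pre 1 was higher (median -0.10, beside 0.04 over all genes). Of 8 muscle fibre markers 3 were higher in each of these comparisons (medians -0.044 and -0.025), and 0 were called. All 6 adipocyte markers were higher in value with exercise over both diets (median log2 fold change 0.30, beside 0.01 over all genes) and in HFD-post against HFD-pre (median 0.44, beside 0.04 over all genes). In each of these comparisons 0 of the 6 were called and 2 had an unadjusted p under 0.05. Their sum was 289 to 336 FPKM in CON-pre, 287 to 395 in HFD-pre, 303 to 424 in CON-post and 316 to 613 in HFD-post. The part of these cells in the result was not tested. In whole muscle, fewer cells of a type and less RNA per cell cannot be told apart.

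Igfbp6, a binding protein with a preference for IGF-2, lay the other way. Its CON-pre libraries read 19.3, 13.5, 26.3 and 23.2 FPKM and its CON-post libraries 25.9, 37.6, 33.8 and 23.4 FPKM. The HFD-pre libraries read 19.5, 16.3, 24.3 and 25.6 FPKM and the HFD-post libraries 24.5, 28.4, 27.2 and 27.5 FPKM. The post libraries were mostly the higher ones, and the groups overlapped in both diets. Over both diets the means were 21.0 FPKM before and 28.5 FPKM after exercise, which is 0.45 on the log2 scale (standard error 0.13, 95% interval 0.17 to 0.73, limma adjusted p = 0.0755), which missed the threshold. Without CON-pre replicate 3 it was 0.51 (adjusted p = 0.0470), and this was the 1 of 25 alternatives in which it was called. The log2 fold change was 0.56 (adjusted p = 0.226) in CON and 0.34 (adjusted p = 0.510) in HFD. Without HFD-pre replicate 2 the value of Igfbp6 in HFD was 0.22 (adjusted p = 0.824).

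The make-up of the binding protein transcripts followed from these levels. Igfbp5 took 56.0 ± 5.19% of the summed FPKM of the 5 binding proteins in CON-pre, 60.1 ± 4.85% in HFD-pre, 45.4 ± 5.95% in CON-post and 46.0 ± 3.17% in HFD-post (SD, n = 4). Igfbp6 took 10.9 ± 3.06%, 10.3 ± 2.46%, 16.8 ± 2.65% and 15.7 ± 0.577% in the same order. In HFD the shares of both genes did not overlap between pre and post libraries, with Igfbp5 at 53.4 to 64.0% before and 42.3 to 48.8% after. In CON the Igfbp5 share was 51.3 to 60.8% before and 39.3 to 52.6% after. The other 4 binding proteins summed to 83.3 ± 9.24 FPKM in CON-pre, 83.8 ± 9.55 in HFD-pre, 97.6 ± 16.2 in CON-post and 92.1 ± 7.02 in HFD-post. These shares were chosen after the members' values were known and are given as a description.

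**Figure D3:**
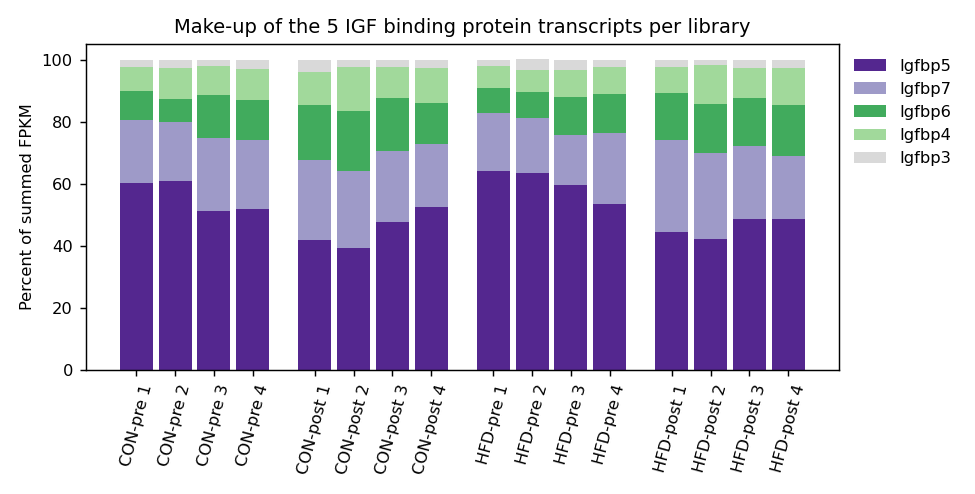
Share (vertical, percent of summed FPKM) of each of 5 binding proteins in each library (horizontal, grouped by condition). The Igfbp5 segment lies between 51.3 and 64.0% in the 8 pre libraries and between 39.3 and 52.6% in the 8 post libraries.

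Igfbp3, the main carrier of IGFs in blood, showed its highest mean in HFD-pre and its lowest in HFD-post. The HFD-pre libraries read 5.08, 6.97, 6.80 and 5.12 FPKM and the HFD-post libraries 4.05, 3.00, 4.91 and 4.53 FPKM, without overlap. The CON-pre libraries read 4.79, 4.95, 4.25 and 5.19 FPKM and the CON-post libraries 5.70, 4.80, 4.91 and 4.81 FPKM, a nearly level pair. The log2 fold change with exercise was -0.50 in HFD (standard error 0.13, limma adjusted p = 0.134) and 0.07 in CON (standard error 0.13, limma adjusted p = 0.894). Neither passed the threshold. The difference between the responses was -0.56 (95% interval -0.96 to -0.17, limma adjusted p = 1.00, unadjusted p = 0.00818). In HFD-post against HFD-pre the libraries of 2 of 9 members, Igfbp3 and Igfbp5, did not overlap, against 6.81% of all genes. Of the 6 endothelial markers, 6 were higher in value in HFD-pre than in CON-pre (median log2 fold change 0.19, 0 called, 2 at an unadjusted p under 0.05), and 1 of 6 was above 0 for the difference between responses (median -0.18, 0 called). Their part in the Igfbp3 values was not tested.

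Igfbp4 and Igfbp7 were called in no comparison. Igfbp4, an inhibitor of IGF action that the protease PAPP-A cleaves, averaged 17.4 ± 0.425 FPKM in CON-pre, 16.4 ± 1.75 in HFD-pre, 20.7 ± 4.79 in CON-post and 18.1 ± 3.798 in HFD-post (SD, n = 4). Its log2 fold change over both diets was 0.17 with exercise (95% interval -0.06 to 0.40, limma adjusted p = 0.420) and its change over both exercise states -0.14 with HFD (-0.37 to 0.09, adjusted p = 0.712). With each library left out these values of Igfbp4 ranged from 0.10 (without CON-post replicate 2) to 0.24 (without HFD-post replicate 1) and from -0.20 (without CON-post replicate 1) to -0.07 (without CON-post replicate 2). Igfbp7, a low-affinity relative abundant in vessels, averaged between 40.0 and 43.0 FPKM in the 4 groups. Its log2 fold change was 0.07 with exercise (95% interval -0.14 to 0.28, limma adjusted p = 0.762) and 0.01 with HFD (-0.20 to 0.22, adjusted p = 0.984). With each library left out the value of Igfbp7 with exercise ranged from 0.02 to 0.12, and over all alternatives it reached 0.21.

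Igf1 was the member whose group means lay farthest apart, 3.55 ± 0.807 FPKM in CON-pre and 1.59 ± 0.394 FPKM in HFD-post (SD, n = 4), a ratio of 2.24, and no contrast on it passed the threshold. The CON-pre libraries read 3.63, 3.77, 4.37 and 2.44 FPKM and the HFD-pre libraries 1.78, 2.01, 2.02 and 3.95 FPKM. HFD-pre replicate 4 lay within the CON-pre range and the other 3 HFD-pre libraries below it. After exercise the CON-post libraries read 1.56, 4.25, 2.54 and 2.22 FPKM and the HFD-post libraries 1.22, 2.01, 1.83 and 1.29 FPKM, with overlap at the lowest CON-post library.

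Over both exercise states Igf1 was lower in HFD in value, at -0.52 on the log2 scale (standard error 0.18, 95% interval -0.89 to -0.15, limma adjusted p = 0.237). Over both diets its value with exercise was -0.44 (standard error 0.18, 95% interval -0.81 to -0.06, limma adjusted p = 0.197). The values within a state were -0.49 in HFD-pre against CON-pre (adjusted p = 0.641) and -0.54 in HFD-post against CON-post (adjusted p = 0.766). Within a diet they were -0.41 in CON (adjusted p = 0.580) and -0.46 in HFD (adjusted p = 0.492). Each of these 6 values kept its sign in every alternative run and was called in none. With each library left out the averaged values ranged from -0.63 to -0.41 with HFD and from -0.55 to -0.33 with exercise. The values within a state or a diet moved further with single libraries. Without HFD-pre replicate 4 the resting diet difference was -0.71 (adjusted p = 0.359) and the value with exercise in HFD -0.24 (adjusted p = 0.682). Without CON-post replicate 1 the value with exercise in CON was -0.23, and without CON-post replicate 2 it was -0.63 and the diet difference after exercise -0.32. Without the 5 libraries with liver markers the value with exercise was -0.22 over both diets, -0.24 in CON and -0.20 in HFD.

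Markers of cells and tissues that make Igf1 were read beside it. Of 6 macrophage markers 5 were found and 0 were called in any contrast (0 at an unadjusted p under 0.05), and their sum was 33.5 to 52.4 FPKM in CON-pre, 30.5 to 39.1 in HFD-pre, 28.0 to 72.6 in CON-post and 23.3 to 48.2 in HFD-post. Of these 5 markers, 0 were higher with HFD over both exercise states (median log2 fold change -0.16, all genes -0.02), 1 at rest (median -0.19, all genes -0.03) and 1 after exercise (median -0.30, all genes 0.00). With exercise the markers were higher in value in 4 of 5 over both diets (median 0.09, all genes 0.01), in 3 of 5 in CON (median 0.13) and in 3 of 5 in HFD (median 0.01), whereas Igf1 was lower in value in each. The lowest and the highest library of Igf1 were also those of the macrophage sum in CON-post (replicates 1 and 2), whereas in CON-pre, HFD-pre and HFD-post 1 end matched and the other did not. Of 6 fibroblast markers 0 were called in any contrast. With HFD 0 were higher over both exercise states (median -0.07), 1 at rest (median -0.06) and 1 after exercise (median -0.10). With exercise 1 of 6 was higher over both diets (median -0.08), 2 in CON (median -0.04) and 1 in HFD (median -0.10). Liver markers summed to 20.04 FPKM in HFD-pre replicate 4, the library with the high Igf1, and to 14.0 FPKM in HFD-pre replicate 1, which had the lowest Igf1 of that group. The summed muscle fibre markers were 49972 to 55295 FPKM in CON-pre and 43206 to 47468 FPKM in HFD-pre, without overlap. Of these 8 markers 0 were called and 3 had an unadjusted p under 0.05 (5 with HFD over both exercise states), and 3 lay against the lower sum, Mb at 0.41, Myh2 at 0.41 and Myh1 at 0.13 on the log2 scale. With each library left out Mb ranged from 0.295 to 0.494, Myh2 from 0.241 to 0.542 and Myh1 from 0.045 to 0.211. Of 6 adipocyte markers Lep was the 1 called with HFD, at 2.34 at rest (limma adjusted p = 0.0138), 2.74 after exercise (0.00893) and 2.54 over both states (0.000243), while the list as a whole was higher in value in 4, 5 and 5 of 6 (medians 0.09, 0.45 and 0.22). Without the 5 libraries with liver markers Lep was 1.36 at rest (adjusted p = 0.699). The part of these in the Igf1 values was not tested.

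Igf2, the imprinted growth factor of fetal tissues, was 4.06 ± 1.22 FPKM in CON-pre, 3.18 ± 0.658 in HFD-pre, 3.43 ± 0.478 in CON-post and 3.12 ± 0.472 in HFD-post (SD, n = 4), with overlap in every comparison. Its log2 fold change was -0.21 with HFD (95% interval -0.46 to 0.05, limma adjusted p = 0.598) and -0.10 with exercise (-0.35 to 0.15, adjusted p = 0.708). Without CON-pre replicate 3 these values of Igf2 were -0.12 and -0.02, and without CON-pre replicate 4 they were -0.27 and -0.16. The highest of its 16 libraries was CON-pre replicate 3, at 5.79 FPKM. The same library held the highest Igf1, at 4.37 FPKM. Blood markers (7 of 7 found) summed to 687 FPKM in this library and to 278 to 319 FPKM in the other CON-pre libraries. They summed to 779 FPKM in HFD-post replicate 2, which had the lowest Igf2 of its group, at 2.55 FPKM. The part of blood in these values was not tested.

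The receptors spanned a narrower range than the ligands, with a ratio of highest to lowest library of 1.41 for Igf1r and 1.19 for Igf2r, beside 3.60 for Igf1 and 2.31 for Igf2. No comparison called either receptor. Igf1r, the signalling receptor, read 1.41, 1.41, 1.60 and 1.34 FPKM in CON-post and 1.15, 1.20, 1.13 and 1.14 FPKM in HFD-post. These libraries did not overlap, which held for 1 of 9 members and for 3.16% of all genes. The log2 fold change was -0.23 (standard error 0.09, 95% interval -0.42 to -0.04, limma adjusted p = 0.670), and averaged over both exercise states the HFD difference was -0.14 (-0.28 to -0.01, adjusted p = 0.441). At rest the Igf1r libraries of the diets overlapped, at 1.17 to 1.54 FPKM in CON-pre and 1.14 to 1.33 FPKM in HFD-pre.

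Igf2r averaged between 9.998 and 10.33 FPKM in the 4 groups. Its log2 fold change was -0.03 with exercise (95% interval -0.14 to 0.08, limma adjusted p = 0.804) and 0.01 with HFD (-0.09 to 0.12, adjusted p = 0.958). These intervals are the narrowest of the 9 members and leave room for a change of at most about 0.14 in either comparison.

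**Figure D4:**
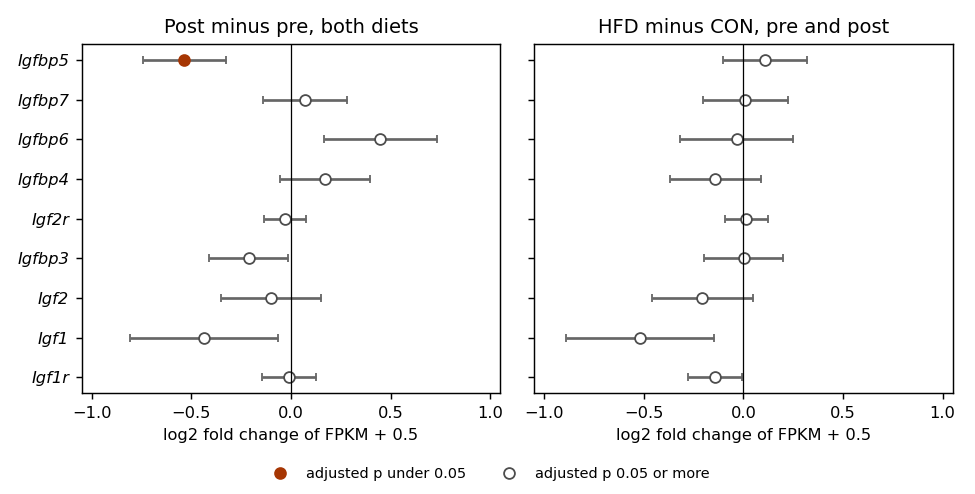
Log2 fold change of FPKM + 0.5 (horizontal) of the 9 members (vertical), for exercise averaged over both diets (left) and for HFD averaged over both exercise states (right), with 95% intervals from limma. The filled point, Igfbp5 at -0.54 with exercise, is the 1 value with an adjusted p under 0.05.

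Across the family, limma called no member in the 5 other comparisons. In HFD-pre against CON-pre 0 of 9 were called (0.346% of all genes) and 1, Igfbp3, had an unadjusted p under 0.05 (8.25% of all genes). In CON-post against CON-pre 0 of 9 were called (1.11% of all genes) and 2, Igfbp5 and Igfbp6, had an unadjusted p under 0.05 (11.1%). In HFD-post against CON-post 0 of 9 were called (0.151%) and 3, Igf1, Igf1r and Igfbp3, had an unadjusted p under 0.05 (6.29%). For HFD over both exercise states the counts were 0 (0.959%) and 2, Igf1 and Igf1r (10.4%). For the difference between responses they were 0 (0% of all genes) and 1, Igfbp3 (3.16%). The comparisons share groups and are not independent of each other. The median log2 fold change of the 9 members with exercise over both diets was -0.03, beside 0.01 over all genes tested.

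Genes that act on the IGF system outside the 9 members were read from 5 lists of 40 genes in all, of which 27 were tested. With exercise over both diets 2 of 27 rose and 1 fell (2.95% of all genes rose and 0.915% fell), and in HFD-post against HFD-pre 1 of 27 rose (0.489% of all genes). Of 4 relatives of the binding proteins 1 was tested, Igfals, and it was not called (0 comparisons at an unadjusted p under 0.05). Of 9 tested proteases that cut binding proteins and their inhibitors, Timp3 was the 1 called. Timp3, an inhibitor of metalloproteinases, read 30.4, 37.9, 36.7 and 37.4 FPKM in CON-pre and 49.3, 38.3, 40.0 and 55.5 FPKM in CON-post. It read 38.1, 42.1, 38.4 and 42.5 FPKM in HFD-pre and 50.3, 62.2, 62.2 and 63.4 FPKM in HFD-post. Post libraries lay above pre libraries without overlap in both diets, as 5.82% of all genes did not overlap in CON and 6.81% in HFD. Timp3 rose by 0.45 on the log2 scale over both diets (standard error 0.08, limma adjusted p = 0.00387) and by 0.55 in HFD (adjusted p = 0.0347), and the value in CON was 0.35 (adjusted p = 0.199). The HFD call was lost in 13 of 26 alternatives, with an adjusted p of up to 0.149, and the averaged call only without the 5 libraries with liver markers (adjusted p = 0.0532).

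**Figure D5:**
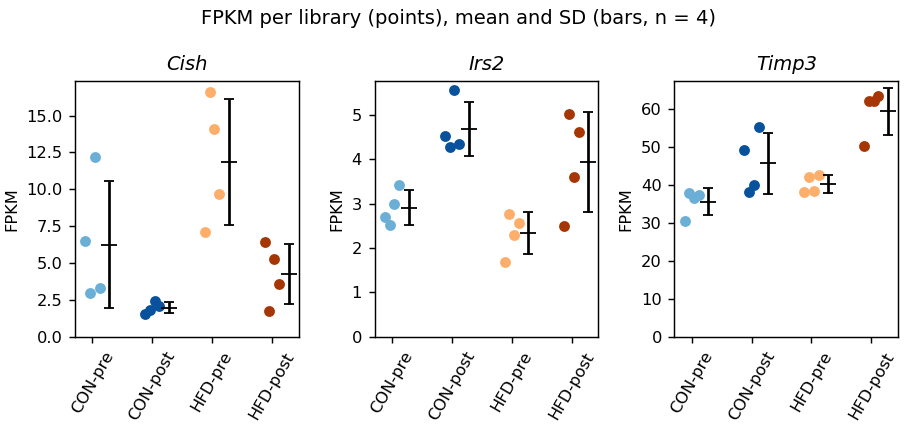
FPKM (vertical, from 0) of Cish, Irs2 and Timp3 in the 4 groups (horizontal), 1 point per library, with the mean and SD (n = 4). Cish lies at 1.52 to 2.42 FPKM in CON-post against 2.94 to 12.2 FPKM in CON-pre, and Timp3 post points lie above the pre points of the same diet.

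Of 7 tested relatives and adaptors of the receptors, Irs2 rose. Irs2, which couples the IGF-1 and insulin receptors to PI3-kinase, read 2.69, 2.52, 2.99 and 3.41 FPKM in CON-pre and 4.51, 4.28, 5.57 and 4.34 FPKM in CON-post, without overlap. In HFD-pre it read 1.68, 2.77, 2.29 and 2.57 FPKM and in HFD-post 2.50, 5.02, 3.61 and 4.61 FPKM, where the lowest post library overlapped the pre libraries. The log2 fold change over both diets was 0.62 (standard error 0.12, limma adjusted p = 0.00815), and it was called in 25 of 25 alternatives. It was 0.60 in CON (adjusted p = 0.120) and 0.63 in HFD (adjusted p = 0.140).

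Of 7 tested genes of the growth hormone axis, which drives Igf1 transcription through STAT5, Cish fell. Cish, a STAT5 target that restrains cytokine receptor signals, read 6.51, 2.94, 12.2 and 3.31 FPKM in CON-pre and 1.52, 1.83, 2.42 and 2.10 FPKM in CON-post. It read 7.08, 16.6, 14.1 and 9.64 FPKM in HFD-pre and 6.40, 1.71, 5.24 and 3.54 FPKM in HFD-post. The post libraries lay below the pre libraries of the same diet without overlap. Over both diets Cish fell by 1.35 on the log2 scale (standard error 0.28, limma adjusted p = 0.0113), and with no filter on low genes its adjusted p was 0.0709. The values were -1.26 in CON (adjusted p = 0.177) and -1.44 in HFD (adjusted p = 0.140). Without the 5 libraries with liver markers Cish was -0.57 in CON (adjusted p = 0.742) and -2.09 in HFD (adjusted p = 0.0309).

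Diet called 0 of the 27 genes at rest (0.346% of all genes), after exercise (0.151%) or over both states (0.959%). The lowest p-values in HFD-pre against CON-pre were those of Stat5b, at a log2 fold change of -0.24 (limma adjusted p = 0.455, unadjusted p = 0.0179), and Cish, at 1.01 (adjusted p = 0.467), and 3 of 27 had an unadjusted p under 0.05 (8.25% of all genes). This value of Cish was 2.13 (adjusted p = 0.146) without the 5 libraries with liver markers and ranged from 0.75 to 1.38 with each library left out. In HFD-post against CON-post they were Timp3 at 0.39 (adjusted p = 0.328) and Jak2, the kinase of the growth hormone receptor, at -0.25 (adjusted p = 0.432), and 6 of 27 had an unadjusted p under 0.05 (6.29%). Over both exercise states they were Jak2 at -0.21 (adjusted p = 0.122) and Timp3 at 0.28 (adjusted p = 0.142), with 8 of 27 at an unadjusted p under 0.05 (10.4%). For the difference between responses 0 of 27 were called and 0 had an unadjusted p under 0.05 (3.16%), and the lowest were the growth hormone receptor Ghr at 0.16 and Stat5a at 0.24 (adjusted p = 1.00 for both). None of the 3 tested genes among the RNA regulators and imprinted neighbours of Igf2 was called in any of the 7 comparisons, and 1 had an unadjusted p under 0.05 in CON-post against CON-pre (11.1% of all genes) and 1 with exercise over both diets (18.5%).

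The genes most like Igfbp5 in their pattern over the 16 libraries (Pearson r of log2 values among the genes tested) were Tmem50b (r = 0.911), Spag7 (0.878) and Scrn3 (0.868). With group means removed these values were 0.783, 0.762 and 0.771. For Igf1 they were AI846148 (r = 0.899), the lysosomal protease Lgmn (0.870) and Stbd1 (0.862), and 0.797, 0.877 and 0.797 with group means removed. The points share libraries and depth, and the values are a description chosen as the highest of all genes tested.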

How the data were processed

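Polyadenylated RNA of 16 quadriceps samples was sequenced by the authors from stranded libraries, aligned with TopHat to mm9 as their methods state, and estimated per gene with Cufflinks (versions not given in the sources used here). The deposited values are FPKM, scaled by the authors for length and library size, so the reads behind a value are not known from the files, the methods give only an approximate number of reads per sample, and no count model was used. Entries named by dates (27 of 24487, 0.0771% of FPKM) were left out, 260 symbols in several entries were summed, and 0 columns of sample values were left unused. Positions are from RefSeq GRCm38.p6: of 4 members listed with loci by the study, 4 overlapped that build and 0 overlapped mm9.

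Genes averaging 0.5 FPKM or more were fitted by limma 3.58.1 (R 4.3.3) after a log2(FPKM + 0.5) transform, allowing for a trend of variance with mean, all groups together, with 7 contrasts, at a Benjamini-Hochberg adjusted p under 0.05. The p-values measure the spread between the deposited samples. The code was tested on simulated data. Alternatives were pseudocounts of 0.1 and 1, no filter, upper-quartile and median-of-ratios scaling, only the 2 groups compared, no trend, array weights, a replicate block and each library left out. Leaving out the 5 libraries with over 10 FPKM of liver markers was chosen later, after seeing the data. The members and all gene lists were chosen with earlier results of these data known. The genes named are the members, the pathway genes called in any contrast or, where none was, the 2 with the lowest p, and the 3 most alike genes of each called member and of Igf1. Cell type markers that are named were chosen after their values were seen. Figures were drawn with Python 3.11.15, numpy 2.4.6, pandas 2.3.3 and matplotlib 3.10.9.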

Additional observations from a re-analysis of the deposited data

Results flagged for a closer look

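Among 36 sets of 4 libraries (9 members in 4 groups), 4 had a library far from the other 3, by Dixon's ratio of the gap to the range of the set at its 95% critical value, where chance gives about 1 in 20. Igf1 was 3.95 FPKM in HFD-pre replicate 4, against 1.78 to 2.02 in the others. Igfbp3 was 5.70 FPKM in CON-post replicate 1, against 4.80 to 4.91. Igfbp4 was 16.8 FPKM in CON-pre replicate 1, against 17.6 to 17.7, a small gap in a tight set. Igfbp4 was 13.8 FPKM in HFD-pre replicate 2, against 17.0 to 17.6.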

How the results depend on the processing

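Of the values named above, none that was called changed its sign in any alternative. In HFD-post against HFD-pre the count of members called was 0 with no filter, with no mean-variance trend, with the replicate block and without the 5 libraries with liver markers, and 0 to 1 with each library left out. Over both diets it was 0 without those 5 libraries, where all genes called fell from 435 to 156 with fewer libraries fitted, and 1 to 2 with each library left out. In the other 5 comparisons it stayed at 0. Of those 5 libraries only HFD-post replicate 1 was taken after exercise, so leaving them out was not balanced between pre and post. CON-pre replicate 1 (127 FPKM) and HFD-pre replicate 1 (155 FPKM), both left out, held the highest Igfbp5 of their groups. Signs turned in uncalled values near 0: without the 5 libraries, Igfbp3 in CON-post against CON-pre was -0.008, Igfbp5 in HFD-post against CON-post 0.003, Igf2 and Igf2r with exercise 0.084 and 0.026, Myh1 in HFD-pre against CON-pre -0.035, and Igfbp7 with HFD -0.068, the last being -0.038 with array weights. With each library left out, Igfbp5 in HFD-post against CON-post ranged from -0.164 to 0.047, Igfbp7 with HFD from -0.029 to 0.061 and Igf2r with HFD from -0.006 to 0.034. Listed genes not called above were called in single alternatives: Irs2 without HFD-post replicate 1 in CON (adjusted p = 0.0438) and in HFD (0.0215), Timp3 with HFD without CON-post replicate 4 (0.0457), and Cish in HFD without the 5 libraries (0.0309). Of the cell type markers called above, Lep lost its call in 6 of 26 alternatives at rest and 3 of 26 after exercise, and Tagln in 2 of 25. The cause was not tested.

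Replicate numbers did not pair the samples: deviations of same-numbered libraries correlated at -0.220 to 0.213, with 5 of 24 pairs over 0.1, and 6 of 16 libraries correlated best with their own number. With the replicate block Igfbp5 in HFD-post against HFD-pre was -0.679 (adjusted p = 0.102), so the count there was 0, and over both diets the count of members was 1.

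Counts over all genes ranged over the alternatives from 0 to 63 in HFD-pre against CON-pre (39 as reported), 36 to 187 in CON-post against CON-pre (125), 18 to 78 in HFD-post against HFD-pre (61), 2 to 19 in HFD-post against CON-post (17), 156 to 591 with exercise (435), 22 to 137 with HFD (108) and 0 to 1 for the difference between responses (0). With 4 libraries a group and no counts in the files, the smallest change that could be detected was not measured. The intervals given for each member are not adjusted for the number of genes tested. Igfbp6 with exercise (0.17 to 0.73) and Igf1 with HFD (-0.89 to -0.15) had intervals without 0 and were not called.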
